A study of Mus musculus with 25 samples.

Results

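The 16 wild-type columns of the expression table stand in 3 separate runs of neighbouring columns, and these runs were set against each other over all expressed genes. Run 1 holds 7 columns (A3, A4, A7, A8, A10, A11 and A12), run 2 holds 4 (B5, B7, B8 and B9) and run 3 holds 5 (B1, B2, B3, B4 and B6), of 25 columns in all. A run is a position in the table. The labels name no batch, day, litter or sex, and all wild-type columns whose code starts with A fall in run 1 and all that start with B in runs 2 and 3. Every wild-type column is a bulk library of CD8+ T cells taken from a B16F10 tumour, a transplanted mouse melanoma, in C57BL/6 mice of WT genotype. The labels give no age, no sort gate and no statement that libraries come from separate mice, so p-values here reflect only how libraries vary, which may be technical. The 9 other columns are 3 Prdm1 cKO, 3 c-Maf cKO and 3 Prdm1/c-Maf cDKO libraries, in which conditional knockout removed one or both transcription factors; the Cre line is not given in the sources used here. They enter only where stated.

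CD8+ T cells in a tumour range from naive-like and memory cells to dividing effector and exhausted cells. Effector cells carry granzymes and perforin, and exhausted cells carry inhibitory receptors such as PD-1. Libraries of such isolates can also hold RNA of melanoma cells, macrophages and red cells. In a bulk library, fewer cells of a type and less RNA per cell cannot be told apart.

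Values are the authors' normalised signals, whose scale is not stated, and differences are limma estimates on log2(value + 1) with their standard error (SE). Of 23366 symbols, 11725 reached a value of 1 in at least 3 of the 16 columns and were tested. Column totals were 417285 to 444788 in run 1, 450249 to 466199 in run 2 and 389650 to 450715 in run 3. Between 13513 and 15161 symbols were above 0 in a column, and 10.4% to 17.3% of a column's signal came from Rn45s, which encodes ribosomal RNA. Genes of the T cell receptor complex and CD8 were present in every column, with a mean log2 value over 12 CD8 T cell markers of 7.14 to 7.83 in run 1, 7.75 to 7.91 in run 2 and 6.67 to 8.17 in run 3. The lowest of these was B3, which also held the highest melanoma marker level of the 16.

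A set of genes was low in all run 3 columns. Over the 3 runs, 355 genes (3.03% of those tested) passed the moderated F test at an adjusted p under 0.05. All 15 named genes with the smallest p had their lowest mean in run 3 and their highest in run 2, and in 11 of the 15 every run 3 value lay below every value of the other runs. The promoter windows of 2 genes are printed here to show the sequence at the start of genes on either side of this difference. They are the genes of smallest p, lower and higher in run 3 than in run 1, whose window matched a transcript start. The letters are from RefSeq on GRCm38.p6, a later build than the authors' mm9, and capitals mark the first 30 transcribed bases after 250 bases upstream.
Mlxip, chr5:123394548-123394827, plus strand: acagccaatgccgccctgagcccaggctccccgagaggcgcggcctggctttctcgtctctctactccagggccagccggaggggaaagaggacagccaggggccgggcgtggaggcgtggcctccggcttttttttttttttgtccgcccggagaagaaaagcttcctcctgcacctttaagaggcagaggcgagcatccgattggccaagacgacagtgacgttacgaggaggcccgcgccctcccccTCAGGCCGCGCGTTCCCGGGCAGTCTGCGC
Senp7, chr16:56075230-56075509, plus strand: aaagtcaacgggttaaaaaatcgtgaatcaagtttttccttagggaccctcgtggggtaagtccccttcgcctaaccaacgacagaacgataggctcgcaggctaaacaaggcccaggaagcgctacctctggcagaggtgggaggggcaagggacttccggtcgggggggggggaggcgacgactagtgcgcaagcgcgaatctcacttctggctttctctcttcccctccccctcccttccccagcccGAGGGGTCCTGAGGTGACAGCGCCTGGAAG
In the Mlxip window 65.4% of bases are G or C, and 76.7% of the capitals. In the Senp7 window the shares are 59.6% and 66.7%.

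Mlxip encodes MondoA, a glucose-responsive transcription factor, and had the smallest p of all genes named. Its signal was 41.0, 37.8, 51.5, 50.4, 23.2, 41.9 and 54.0 in the run 1 columns. It was 52.8, 58.0, 53.8 and 71.8 in run 2 and 6.77, 6.60, 8.77, 8.58 and 8.51 in run 3. Run 3 stood wholly apart, and runs 1 and 2 overlapped. The difference of run 1 minus run 3 was 2.27 ± 0.17 on the log2 scale (SE, adjusted p = 7.63e-07, limma), and that of run 2 minus run 3 was 2.76 ± 0.20 (adjusted p = 2.79e-07, limma).

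Odc1, the rate-limiting enzyme of polyamine synthesis, had a signal of 49.8 to 123.6 in run 1 with a median of 85.8. It was 165.6, 189.3, 169.8 and 105.7 in run 2, and 22.1, 22.1, 22.2, 20.1 and 27.4 in run 3. The run 3 values varied little and lay below all others. Run 1 minus run 3 was 1.84 ± 0.19 (SE, adjusted p = 3.89e-05, limma).

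The RING-type ubiquitin ligase Rnf187 showed the largest difference of run 1 over run 3 among the named genes, 3.07 ± 0.42 on the log2 scale (SE, adjusted p = 0.00166, limma). Signal of Rnf187 averaged 74.7 ± 33.6 in run 1, 108.7 ± 4.88 in run 2 and 6.82 ± 2.01 in run 3 (SD, n = 7, 4 and 5). Column A10 held 11.1, far below the 53.8 to 114.5 of the other run 1 columns and near the highest run 3 value of 9.28. The RNA-binding cold-shock protein gene Ybx1 had the same layout, with 13.1 in A10 against 50.9 to 86.7 in the rest of run 1. It held 99.7 to 154 in run 2 and 7.22 to 14.1 in run 3.

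**Figure D1:**
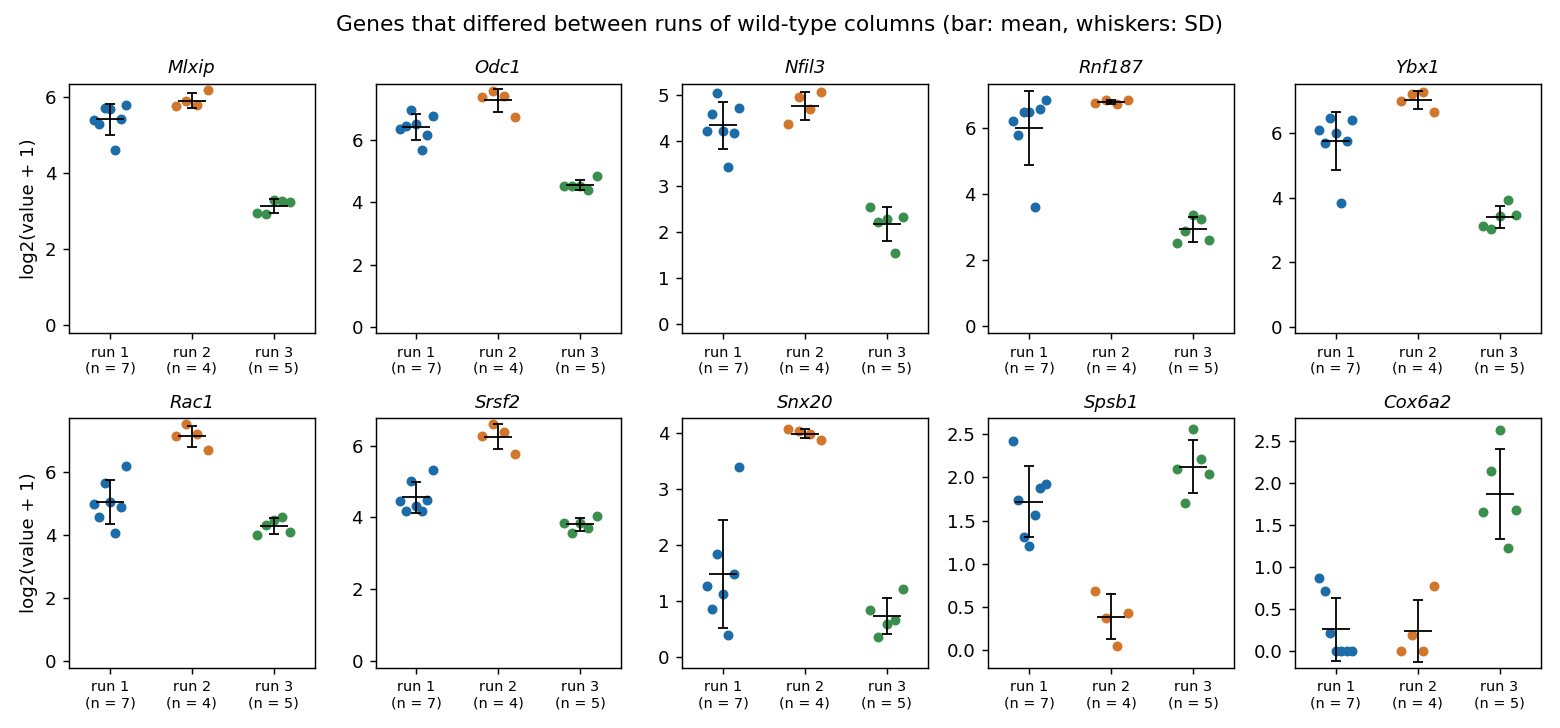
log2(value + 1) of 10 genes in each wild-type column, by run (points: columns; bar: mean; whiskers: SD). Mlxip, Odc1 and Nfil3 are low in all 5 run 3 columns, Snx20 is high in all 4 run 2 columns, and 1 run 1 column, A10, lies close to run 3 for Rnf187 and Ybx1.

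The other genes of this group serve unlike functions. Nfil3, a bZIP transcription factor of lymphocytes, averaged 20.2 ± 7.08 in run 1, 26.6 ± 5.56 in run 2 and 3.66 ± 1.06 in run 3 (SD), and run 1 minus run 3 was 2.15 ± 0.23 (SE, adjusted p = 7.9e-05, limma). Lamp1, the lysosomal protein that reaches the surface when granules are released, averaged 25.7, 34.4 and 5.17 in runs 1, 2 and 3. Its run 1 minus run 3 difference was 2.01 ± 0.38 (SE, adjusted p = 0.0121, limma), and its adjusted p was 0.0502 without B1 and 0.103 with tumour, macrophage and erythroid marker scores in the fit. Donson, a replication fork protein, averaged 11.1, 16.8 and 1.46, and Bag1, a co-chaperone of Hsp70, averaged 23.1, 41.3 and 5.42. Glud1, mitochondrial glutamate dehydrogenase, averaged 43.3, 55.7 and 14.1, and Lmnb1, the nuclear lamina protein lamin B1, averaged 34.4, 57.3 and 12.9. Pnrc1, a nuclear receptor coactivator, averaged 78.1, 129 and 15.6, and Mrs2, a mitochondrial magnesium channel, averaged 16.5, 14.7 and 3.11. The stress-induced gene Gadd45a averaged 6.38, 5.80 and 0.96. Ccny (cyclin Y) averaged 8.60, 10.8 and 2.12, and Aggf1 averaged 14.9, 18.8 and 3.30.

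Counted over all genes, 118 were called higher in run 1 than in run 3 (1.01% of those tested) and 14 lower (0.119%), 132 in all (1.13%). The 118 differences ran from 0.33 to 3.07 on the log2 scale with a median of 1.09. The median of all genes tested was 0.02. In 84 of the 118 the run 2 mean lay above the run 1 mean. Between run 2 and run 3, 394 genes were called higher (3.36%) and 64 lower (0.546%), 458 in all (3.91%), and the 2 comparisons share the run 3 columns. The 5 run 3 values lay below all values of the other runs in 79 genes, which is 0.674% of those tested, and 63 of these are among the 118. Without B3, 243 genes differed between runs 1 and 3 in place of 132, without B1 64 and without B2 82. Of the 15 genes with the smallest F test p, 14 stayed past the threshold under every alternative run for them; Ptma did not once columns were scaled to CD3 genes (adjusted p = 0.315, limma).

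The genes low in run 3 had a higher GC content at the transcript start than genes at large, a property that the choice of columns did not use. The median GC content of the first 300 bases of the longest coding transcript was 72.8% over 116 of the 118 genes higher in run 1, 68.0% over 385 of the 394 higher in run 2, and 61.0% over the 11190 genes tested that have a value. It was 58.7% for the 14 genes lower in run 1 than in run 3. Of the 15 genes with the smallest F test p, 13 lay above the median, and their range was 55.3% to 77.7%. Whole transcripts of the 118 held 51.10% GC against 49.99% over all, and their last 300 bases 41.0% against 42.3%. Transcript length differed too, with medians of 2823 bases for the 118, 2520 for the 394 and 3020 over all genes. For the 64 genes lower in run 2 than in run 3 it was 4169. Across genes, the run 2 minus run 3 difference had a Spearman correlation of -0.23 with length and 0.082 with start GC. For run 1 minus run 3 these were -0.109 and 0.104. Promoter windows, available for 89 of the 118, held a median of 64.3% GC and 24 CG dinucleotides, against 60.7% and 21 over 8722 genes; CG reads the same on both strands.

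The share of genes called higher in run 1 than in run 3 rose with GC content of the start from bin to bin. It was 0% below 45% GC, 0.163% from 45% to 55%, 0.373% from 55% to 65%, 1.82% from 65% to 75% and 5.01% from 75% GC upward, a bin of 799 genes. For run 2 minus run 3 the shares were 1.45%, 1.26%, 2.54%, 4.72% and 11.3%. The bulk of GC-rich genes moved little, since the median difference of run 1 minus run 3 in the highest bin was 0.12 on the log2 scale. A GC index of each column, the median centred log2 value of genes with 75% GC or more at the start minus that of genes with 50% to 65%, ranged from -0.07 to 0.13 in run 1, 0.01 to 0.05 in run 2 and -0.20 to 0.07 in run 3. The overlap of run 3 with the other runs rested on B3 at 0.07: its other 4 columns, at -0.20 to -0.09, lay below all columns of runs 1 and 2. After a loess correction of each column for this GC content, 86 genes were still called higher in run 1 than in run 3. What links GC content or transcript length to the runs was not tested.

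**Figure D2:**
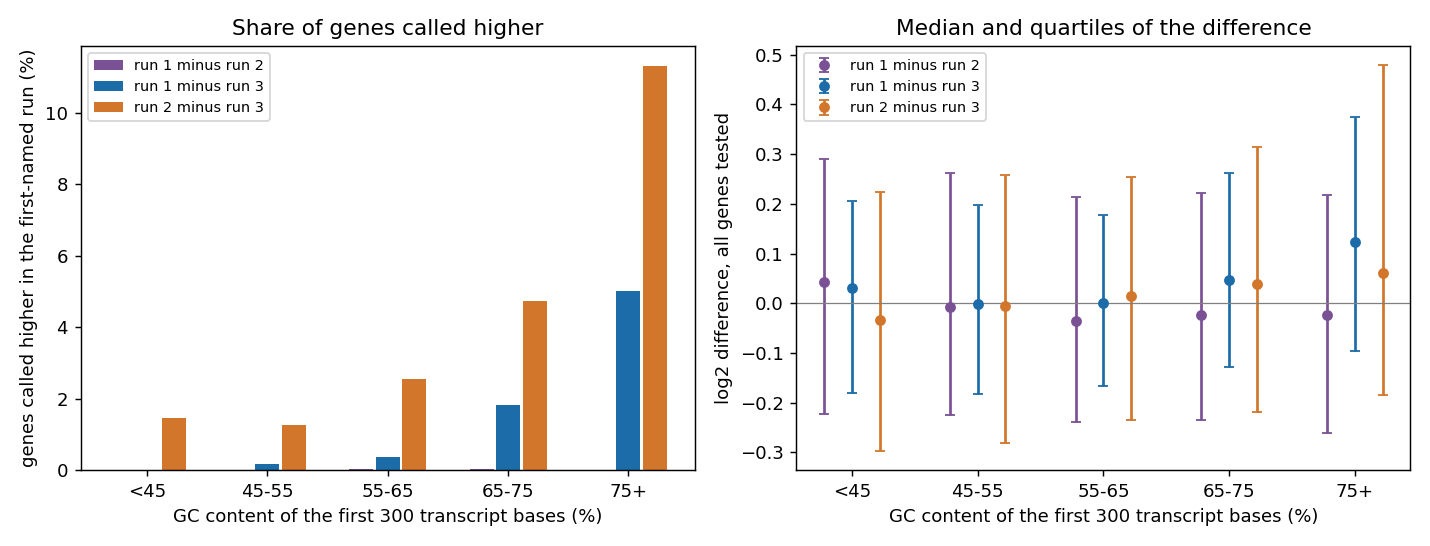
Left, percent of genes called higher in the first-named run by GC content of the first 300 transcript bases. Right, median (points) and quartiles (whiskers) of the log2 difference of all genes tested in each bin. The share called reaches 5.01% for run 1 minus run 3 and 11.3% for run 2 minus run 3 in the highest bin, while the medians stay within 0.13 of 0.

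The 9 knockout columns, which took no part in choosing the 118 genes, were placed by their nearness to the run means. In C2, a cDKO column, 65.3% of the 118 genes lay nearer the run 3 mean than the run 1 mean. In the other two cDKO columns, A1 and A2, the shares were 9.32% and 8.47%. The 3 Prdm1 cKO columns had shares of 9.32%, 7.63% and 17.8%, and the 3 c-Maf cKO columns 22%, 5.93% and 5.08%. Mlxip had a signal of 11.5 in C2 against 60.6 in A1 and 96.6 in A2, and Rnf187 had 10.02 in C2 against 80.2 and 103 in A1 and A2. The cDKO columns stand directly after run 3 in the table and lay on both sides of this difference. The codes of A1 and A2 start with A, as do those of run 1. Among wild-type columns, whose values chose the genes, the shares were 0% to 7.63% in run 1 apart from A10 at 43.2%, 2.54% to 8.47% in run 2 and 84.7% to 100% in run 3.

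**Figure D3:**
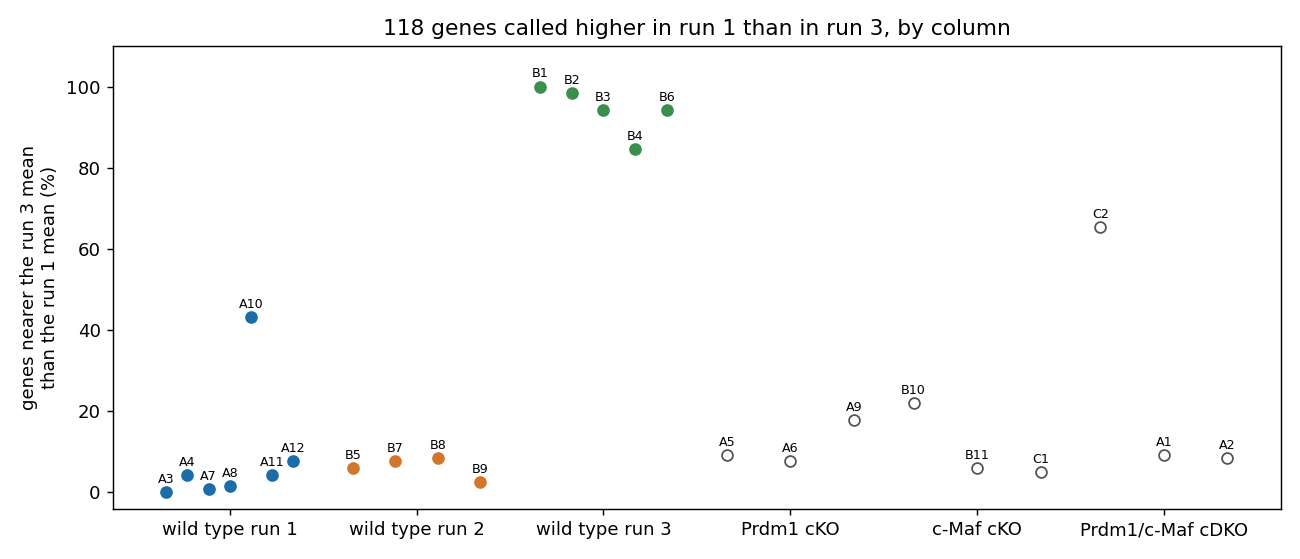
Percent of the 118 genes called higher in run 1 than in run 3 that lie nearer the run 3 mean than the run 1 mean, for each of the 25 columns, by group. All 5 run 3 columns are at 84.7% or above, C2 of the cDKO columns is at 65.3% and A10 of run 1 at 43.2%.

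Fewer genes were high in run 3. The 14 genes lower in run 1 than in run 3 include Cflar, an inhibitor of death receptor signalling, which averaged 10.7 ± 2.01 in run 1, 8.43 ± 0.597 in run 2 and 18.5 ± 2.02 in run 3 (SD). Every run 3 value of Cflar, 16.9 to 21.8, lay above the highest value elsewhere, 13.1. The difference of run 1 minus run 3 was -0.75 ± 0.14 (SE, adjusted p = 0.00982, limma). The SUMO protease gene Senp7 averaged 8.03, 6.43 and 15.7 in runs 1, 2 and 3, with a run 1 minus run 3 difference of -0.89 ± 0.18 (SE, adjusted p = 0.0179, limma), and its adjusted p was 0.0512 without B1 and 0.0597 without B4. Cox6a2, a cytochrome c oxidase subunit of heart and muscle, was at most 0.83 in run 1 and 0.71 in run 2 and ran from 1.34 to 5.21 in run 3. Abcc5, an efflux transporter, averaged 4.10, 2.26 and 8.45, and its call against run 1 held under 12 of 30 alternatives. Cybasc3 averaged 18.5, 21.2 and 40.0, and the adaptor gene Sh2d3c 22.2, 29.1 and 47.1. F2rl2, a member of the protease-activated receptor family, averaged 2.14, 4.87 and 6.81, and its call held under 6 of 30 alternatives. The calls of Hist2h4 (histone H4; 14.4, 21.6 and 38.3) and Nabp1 (a single-stranded DNA-binding protein; 14.7, 19.9 and 32.2) held under 23 and 11 of 31.

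Run 2 differed from run 3 downward in 64 genes. Spsb1, a SOCS-box adaptor of a ubiquitin ligase, ran from 1.31 to 4.35 in run 1, was 0.61, 0.30, 0.04 and 0.35 in run 2, and ran from 2.25 to 4.88 in run 3. All run 2 values lay below those of the other runs. Run 2 minus run 3 was -1.73 ± 0.26 (SE, adjusted p = 0.000678, limma). S1pr5, a receptor for egress of lymphocytes from tissue, averaged 0.955 ± 0.176 in run 2 and 4.94 ± 1.64 in run 3 (SD), and the copper transporter gene Atp7a averaged 1.54 and 5.78. Gpr52, Nudt7, Sema4b, Lpar5 and Hspb6 were also among the 10 largest differences in this direction, between -1.50 and -1.21 on the log2 scale. The calls of Atp7a, Sema4b and Hspb6 held under 18, 20 and 10 of 30 alternatives.

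Between runs 1 and 2 the calls were fewest, though not under every alternative. Of the genes tested, 2 were higher in run 1 than in run 2 (0.0171%) and 14 lower (0.119%), 16 in all (0.136%), with 1884 genes at an unadjusted p under 0.05 against 1394 for run 1 minus run 3. The higher ones were Spsb1, with 1.33 ± 0.24, and Tecpr1, an autophagy gene, with 1.03 ± 0.19 (SE, adjusted p = 0.0372 and 0.0395, limma). Without B7 their adjusted p was 0.208 and 0.291, and the calls held under 15 of 30 and 14 of 31 alternatives. The sorting nexin gene Snx20 had 0.30 to 2.58 in 6 of 7 run 1 columns and 9.46 in A12, against 15.8, 15.4, 14.7 and 13.7 in run 2. Run 1 minus run 2 was -2.51 ± 0.39 (SE, adjusted p = 0.00748, limma), with an adjusted p of 0.0540 without B7, and run 3 held 0.28 to 1.32. Rac1, a small GTPase of the actin cytoskeleton, averaged 36.2 ± 19.2 in run 1, 143 ± 32.9 in run 2 and 18.9 ± 3.30 in run 3 (SD). Its run 1 minus run 2 difference was -2.07 ± 0.29 (SE, adjusted p = 0.00485, limma). Srsf2, a splicing factor, averaged 23.7, 77.1 and 13.04, and Ptma, prothymosin alpha, 530, 764 and 452. The cell cycle transcription factor gene Mybl2 averaged 3.91, 10.8 and 2.11, and its call between runs 1 and 2 held under 7 of 30 alternatives, with an adjusted p of 0.291 without B7 (limma). This count was the least stable of all. It was 92 without A11, 126 without B3, 3 without B7, 637 when columns were weighted by their quality and 247 without B3 and B6 together. Run 1 minus run 3 had fewer calls than that with quality weights (188) and without B3 and B6 together (99).

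Histone genes among the largest differences did not share 1 order of the runs: Hist2h4 was highest in run 3, as given above, and Hist1h2bk, Hist1h2ae and Hist1h2ap had their highest mean in run 2. Hist1h2bk was at 0 in 3 of 7 run 1 columns and at most 3.45 there, and held 7.48, 12.75, 11.96 and 12.75 in run 2 and 2.28 to 7.43 in run 3. For run 1 minus run 2 the difference was -2.88 ± 0.39 (SE, adjusted p = 0.00311, limma). Hist1h2ae averaged 1.56, 4.88 and 2.59 in runs 1, 2 and 3. Hist1h2ap was listed at 0 in 5 run 1 columns and at 4.47 and 31.1 in A11 and A12. It was at 1.01, 19.7, 29.2 and 68.4 in run 2 and at most 0.01 in run 3. Its run 2 minus run 3 call (adjusted p = 0.0476, limma) held under 7 of 31 alternatives. Histone, ribosomal protein, haemoglobin and Ptma reads can be split between near-identical copies, so their values are uncertain.

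Part of the proliferation genes were higher in run 2 than in run 3, a comparison in which 3.36% of all genes tested were called higher and 0.546% lower. Of 29 S phase genes, 5 were called higher in run 2 than in run 3 (Mcm3, Mcm7, Pcna, Rrm1 and Fen1) and 0 lower. The median difference was 0.54 on the log2 scale over the list against 0.01 over all genes. The calls of Mcm7 and Pcna held under 18 and 13 of 31 alternatives. Of 31 G2 and M phase genes, 7 were called higher (Mki67, Ccnb2, Ccna2, Cdc20, Birc5, Ube2c and Hmmr) and 0 lower, with a median of 0.63. Ccnb2, cyclin B2, had 84.6, 81.8, 85.2 and 83.4 in run 2 and 44.8 to 57.1 in run 3, with no overlap. In run 1 it ran from 37.9 to 76.9. The difference of run 2 minus run 3 was 0.71 ± 0.17 (SE, adjusted p = 0.0191, limma), and the adjusted p was 0.0533 to 0.0635 without B2, B5, B7 or B8. Ccna2, cyclin A2, averaged 40.9, 67.0 and 34.3 in runs 1, 2 and 3, and Birc5, survivin, 73.9, 105 and 51.2. Mki67, the marker of cycling cells, averaged 12.5 ± 2.88, 20.2 ± 1.26 and 12.8 ± 2.02 (SD), with an adjusted p of 0.0488 for run 2 minus run 3 (limma), a call that held under 9 of 31 alternatives.

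Against run 2, run 1 had list medians of -0.49 for S phase and -0.53 for G2 and M phase genes. In the estimate, 29 of 29 and 28 of 31 members were lower in run 1, and 0 of these genes were called. Run 1 minus run 3 medians were 0.04 and 0.06, and 0 genes of either list were called. Of all genes tested, 0.136% were called for run 1 minus run 2 and 1.13% for run 1 minus run 3. Beside shares this low, counts of 0 in these lists say little. The proliferation calls depended on scaling. Scaling columns to CD3 genes moved the median of all genes from 0.01 to -0.17 for run 2 minus run 3. With it, 0 genes of either list were called and the medians were 0.33 and 0.42. Calls over all genes fell too, to 50 higher and 7 lower from 394 and 64. With so few calls over all genes, a count of 0 in these lists says little. With quality weights, 11 S phase and 16 G2 and M phase genes were called higher in run 2 than in run 3. The count over all genes rose as well, to 738 higher and 224 lower from 394 and 64. Of 78 cytosolic ribosomal protein genes, 13 were called higher in run 2 than in run 3 and 0 lower, beside 3.36% and 0.546% of all genes tested, with a median of 0.23. Rpl28 averaged 728, 946 and 668 in runs 1, 2 and 3. With CD3 scaling the median was 0.02, against -0.17 over all genes, and no member passed (0 of 78).

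Counts of calls in lists of effector state genes stand beside shares of all genes tested of 0.136% for run 1 minus run 2, 1.13% for run 1 minus run 3, 3.91% for run 2 minus run 3 and 3.03% by the F test. Against shares this low, 0 or 1 call in a list of about 20 genes says little about the list. Of 20 cytotoxic effectors, Lamp1 was the only one called in any of the 3 comparisons. Granzyme B (Gzmb) had 191 to 663 in run 1, 460.7, 1051, 943 and 657 in run 2, and 114 to 530 in run 3, so the runs overlapped. Its difference was -1.08 ± 0.43 for run 1 minus run 2 (SE, adjusted p = 0.246, limma) and 1.14 ± 0.46 for run 2 minus run 3 (adjusted p = 0.197, limma). Nkg7, a cytotoxic granule protein, averaged 925 ± 183 in run 1, 1458 ± 151 in run 2 and 1170 ± 447 in run 3 (SD). Over the list, 19 of 20 cytotoxic genes were lower in run 1 than in run 2 in the estimate, with a median of -0.59.

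Among the 20 co-inhibitory receptors 0 were called, against 0.136% to 3.91% of all genes, with medians of -0.41, -0.14 and 0.29 for run 1 minus run 2, run 1 minus run 3 and run 2 minus run 3. PD-1 (Pdcd1) averaged 160 ± 52.0, 295 ± 41.4 and 167 ± 99.3 in runs 1, 2 and 3 (SD), and Tigit 226, 294 and 262. Prdm1, whose product Blimp-1 is a repressor of effector lymphocytes, averaged 13.1 ± 3.33, 21.7 ± 2.68 and 13.9 ± 5.68 (SD), with an adjusted p of 0.167 over the 3 runs (limma F test). Of 20 transcription factors of effector and exhausted cells, Nfil3 passed the F test, and Batf joined it in run 2 minus run 3, against 3.03% and 3.91% of all genes. Maf was at most 0.95 in the 16 columns and was not tested.

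The 20 naive, memory and stem-like genes had medians of 0.56, 0.21 and -0.46 for run 1 minus run 2, run 1 minus run 3 and run 2 minus run 3, and 0 were called, again against 0.136% to 3.91% of all genes. Tcf7, the transcription factor TCF-1 of naive and stem-like T cells, averaged 69.4 ± 22.6, 36.7 ± 9.16 and 59.1 ± 19.2 in runs 1, 2 and 3 (SD). Ccr7, a lymph node homing receptor, averaged 207, 117 and 175. Effector cytokines, chemokines, chemokine receptors, co-stimulatory receptors, killer cell lectin-like receptors, glycolysis genes and interferon-stimulated genes had 0 members called in any comparison. Of 13 immediate early genes, Jun and Jund passed the F test, beside 3.03% of all genes tested. Jund was also called higher in run 2 than in run 3, and Jun was called in no pairwise comparison. Jun averaged 59.9 ± 16.3, 29.7 ± 1.94 and 36.9 ± 10.8, and Jund 2.64, 5.41 and 1.42, so these AP-1 members had their highest means in different runs. Of 8 heat shock genes, 2 were called higher in run 2 than in run 3, beside 3.36% of all genes tested. One of them, Hspa1a, averaged 49.6, 70.6 and 31.0, with a run 2 minus run 3 difference of 1.21 ± 0.24 (SE, adjusted p = 0.006, limma).

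**Figure D4:**
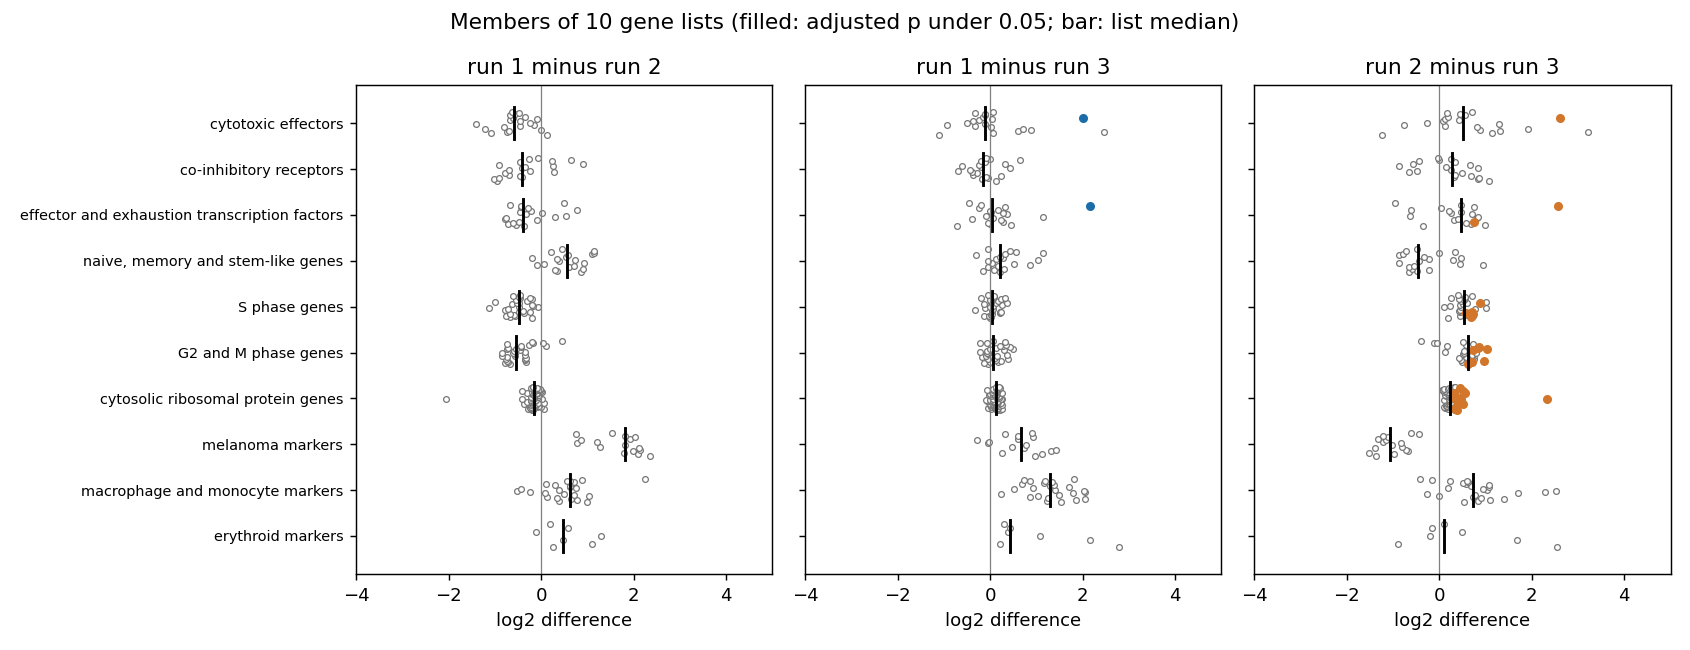
log2 difference of each tested member of 10 gene lists in the 3 comparisons of runs; filled points passed an adjusted p under 0.05 and bars are list medians. Called members are Lamp1, Nfil3, Batf and the S phase, G2 and M phase and ribosomal protein genes of run 2 minus run 3; the melanoma, macrophage and erythroid lists have none.

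RNA of tumour, myeloid and red cells varied widely within runs. With 0.136% to 3.91% of all genes called per comparison, a count of 0 in marker lists this short says little about differences between runs. The 16 melanoma markers had a summed signal of 357 to 2512 in run 1, 112 to 469 in run 2 and 8.05 to 4221 in run 3. All 16 were higher in run 1 than in run 2 in the estimate, with a median of 1.82 on the log2 scale, and 0 were called. Tyrp1, a melanin synthesis enzyme, had 68.1 to 512 in run 1, 24.3, 93.1, 79.9 and 51.7 in run 2, and 80.4, 390, 910, 206 and 0 in run 3. The run 3 columns B3 and B6 were the highest and the lowest of all 16, and Tyrp1 and Dct, both defining pigment genes, were listed at 0 in B6.

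Of 25 tested macrophage and monocyte markers 0 were called, and all 25 were higher in run 1 than in run 3 in the estimate, with a median of 1.31. Their summed signal was 64.4 to 2674 in run 1, 147 to 872 in run 2 and 107 to 728 in run 3. Lysozyme (Lyz2) was 226, 354, 963, 315, 539, 9.13 and 15.3 in run 1, so A11 and A12 fell far below the other 5. It was 23.04 to 232 in run 2 and 7.24 to 116 in run 3. The 13 dendritic cell and 6 neutrophil markers tested had 0 calls.

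Of 17 erythroid markers, 14 are in the table and 7 could be tested, and 0 were called. Their summed signal was 46.6 to 759 in run 1, 66.7 to 394 in run 2 and 2.03 to 1567 in run 3. The alpha globin gene Hba-a1 had 1.04 to 26.5 in 4 run 3 columns and 1322 in B4. In run 1 it ran from 35.8 to 619.5 and in run 2 from 60.3 to 339. Markers of CD4 and regulatory T cells (5 tested), B cells (3), NK cells (2), platelets (2), fibroblasts and endothelium (2), gamma delta T cells (1) and keratinocytes (1) had 0 calls, and were too few for a count of 0 to be informative. With the macrophage, erythroid and melanoma scores as covariates, 67 genes were called between runs 1 and 3, of which 50 are among the 132 without them. In the same fit the count was 28 between runs 1 and 2, 611 between runs 2 and 3 and 429 by the F test.

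Sex-linked transcripts cut across the runs. Xist, made from the inactive X chromosome, was 38.7 to 55.5 in 7 columns whose Y-linked Eif2s3y was at most 1.03, namely A3 and A4 of run 1, B7, B8 and B9 of run 2, and B4 and B6 of run 3. In the other 9 columns Xist was at most 0.94 and Eif2s3y 11.9 to 40.9. Each run held both kinds. With Xist as a covariate, 135 genes were called between runs 1 and 3 and 35 between runs 1 and 2.

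**Figure D5:**
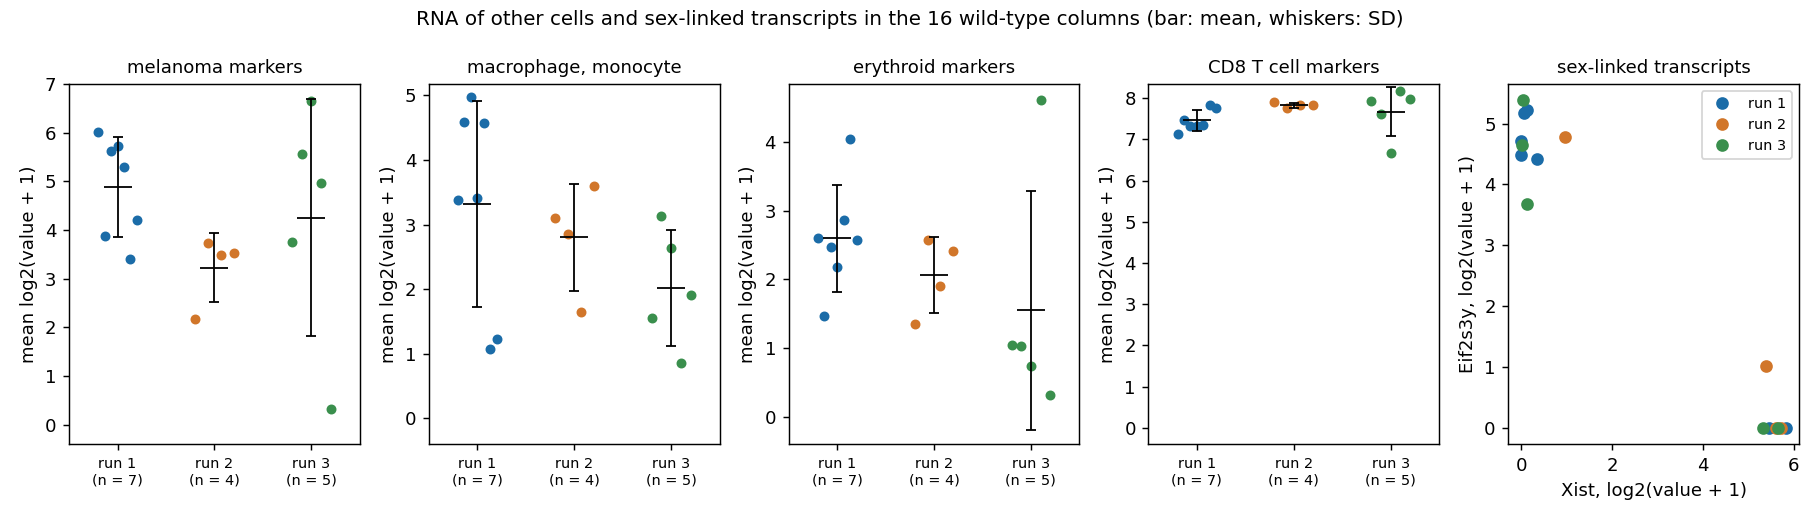
Mean log2(value + 1) of 4 marker lists in each wild-type column by run (bar: mean; whiskers: SD), and Eif2s3y against Xist in the 16 columns. Marker levels of melanoma, macrophage and erythroid cells spread widely within runs 1 and 3, and Xist and Eif2s3y are high in different columns of every run.

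On principal components of the 16 columns, the first took 29.5% of the variance and the second 12.5%. On the second, run 1 lay at -4.81 to 23.6, run 2 at 13.3 to 23.9 and run 3 at -34.1 to -16.2, so run 3 was separate. On the first, B3 and B6, both of run 3, marked the ends at -55.3 and 44.9, with A11 and A12 of run 1 at 25.9 and 10.7 and the other run 1 columns between -39.4 and -12.4. Spearman correlation across genes between 2 columns had a median of 0.918 within run 1, 0.960 within run 2 and 0.922 within run 3, against 0.906 to 0.923 between runs. Run 2 was the most uniform run on this measure.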

How the data were processed

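Bulk CD8+ T cell isolates were made into libraries with an adapted SMART-Seq 2 protocol, per the labels' protocols. The submitters' processing notes name TopHat, RSEM, DESeq and mm9, without roles or versions. The deposited table holds a normalised signal per gene symbol made by the authors. Its scale is not stated, the values are not whole reads, and the depth of each library is unknown. Low values fell with transcript length, from a 10th percentile of 0.24 in the shortest quartile of genes to 0.09 in the longest. The table has 0 columns beyond the 25 mapped ones and 0 identical pairs among the wild-type columns. Columns were matched to genotypes by name, and the runs are positions in the table.

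The deposited values were transformed as log2(value + 1), which understates changes of low genes. Symbols with a value of at least 1 in at least 3 of the 16 wild-type columns were fitted with limma 3.58.1 in R 4.3.3 (trend and robust options, no covariate), with a moderated F test over the 3 runs and 3 contrasts. A call is a Benjamini-Hochberg adjusted p under 0.05 over all genes tested. The fit was tested on simulated data. GC content came from GENCODE M21 transcripts on GRCm38, with 19320 symbols matched by name and 1081 by a synonym. Genes named are, per contrast and direction, the 10 largest called differences, the 15 smallest F test p-values, called or most abundant members of each list, and a few genes fixed by name; predicted genes were left out, and 2 genes that the rule names are not reported here. Mcm3, Rrm1, Fen1, Cdc20, Ube2c, Hmmr and Batf were named after their values were seen. The runs, gene lists and tests were chosen with earlier results of these data known, so members are counted and no set test was run. Alternatives were other pseudocounts, filters, scalings, weights, covariates and columns left out; those with Xist, with GC content and without B3 and B6 together were chosen after seeing the data.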

Additional observations from a re-analysis of the deposited data

Results flagged for a closer look

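Of 513 gap ratios computed within runs, 41 marked 1 column as far from the others of its run; chance marks about 1 in 20. All values here are log2(value + 1) or means of it, apart from the share of Rn45s.

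A10 of run 1 was the low column for Aggf1 (2.57), Donson (2.07), Dusp5 (3.71), Mlxip (4.60), Rnf187 (3.60), Ybx1 (3.82), Ikzf4 (0.65), Xcl1 (5.10) and the effector cytokine mean (3.18). It was the high column for the platelet gene Ppbp (4.82). The first 6 of these are genes with low values in run 3, toward which A10 lay.

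B3 of run 3 was low for the T cell genes Bhlhe40 (6.97), Cd3e (8.20), Cxcr6 (5.84), Id2 (6.39), Ifng (3.68) and Nkg7 (8.80), and for the means of chemokine receptors (4.11) and co-stimulatory receptors (4.40). It was high for Ppbp (3.61). B4 of run 3 was high for the erythroid mean (4.61), the beta globin genes Hbb-b1 (7.06) and Hbb-b2 (6.34), and Birc5 (6.12). B6 was low for the heat shock mean (5.57) and for Bst2 (5.09), and B1 held the sole value of Hist1h2ap above 0 in run 3 (0.01).

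In run 2, B5 was low for the melanoma marker mean (2.17), Hist1h2bk (3.08), Klra9 (0.84) and Xist (0.96) and high for Ddx3y (2.82). B7 was low for the Rn45s share (10.8%) and high for the neutrophil mean (1.99) and S100a8 (3.58), and B9 was low for Yrdc (3.57). In run 1, A3 was low for the co-inhibitory receptor mean (3.55) and Tigit (6.88) and high for Rpl39l (1.37). A4 was high for S100a8 (2.78), A7 for Ifi27l2a (8.27) and A12 for Lpar5 (3.9).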

How the results depend on the processing

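No paired analysis was possible because the columns carry no replicate number. The counts over the 3 runs, for run 1 minus run 2, for run 1 minus run 3 and for run 2 minus run 3 (355, 16, 132 and 458) were recomputed under 31 alternatives. With no filter on low values the first 3 were 223, 5 and 78. With CD3 gene scaling, which moved the medians of all genes to 0.37, 0.22 and -0.17, the counts were 74, 1, 79 and 57. Quality weights gave 1042, 637 and 962 for the first, the second and the fourth. Marker scores gave 28 for run 1 minus run 2 and 67 for run 1 minus run 3. Run 1 minus run 2 had 8 calls with a filter at 10, 5 with equal totals without Rn45s, 9 with quantile normalisation, 3 with all 25 columns in the fit, 35 with Xist as covariate and 247 without B3 and B6 together, where run 2 minus run 3 had 283. With equal totals without Rn45s, run 2 minus run 3 split into 230 higher and 161 lower and run 1 minus run 3 into 98 and 29; with quantile normalisation run 1 minus run 3 split into 111 and 31. Leaving out 1 column gave 182 to 576, 3 to 126, 64 to 243 and 220 to 500. The F test count was 209 without B5, 182 without B7, 206 without B8 and 576 without B3, and run 2 minus run 3 was 300, 220 and 270 without B5, B7 and B8. The causes were not tested. Direction was followed only for differences of named genes already called in the main fit, where a reversal was unlikely. Of these, 0 reversed under any alternative. Counted once per alternative, of 2892 such results 2434 kept their direction and call and 458 lost the call. Of 2772 list medians, also counted per alternative, 56 moved. A median counted as moved only if it shifted by at least the SD of that list's mean level within runs. A change of sign alone was not counted. Depth is unknown, so no counting error can be given.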
